A study of Mus musculus with 9 samples.

Results

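The CpGs described here were methylated at 95% or more in each of 3 cell populations: naive B cells, plasmablasts and plasma cells. They were selected on the measured levels: every CpG with 10 or more reads in each of 9 libraries was taken, the reads of the 3 libraries of a group were pooled, and members had to reach 95% in all 3 groups. The rule found 5724 members, which are 4.14% of the 138222 CpGs that naive B cells held at 95% or more (naive-high CpGs below) and 1.61% of the 356320 CpGs with enough reads. They were set beside 114207 comparison CpGs, which met the threshold in naive B cells but were below 95% in both plasmablasts and plasma cells. The comparison CpGs are 82.6% of the 138222, and another 4879 CpGs were below 95% in plasmablasts alone and 13412 in plasma cells alone.

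The series measured DNA methylation by reduced representation bisulfite sequencing in spleen cells of female C57Bl/6J mice aged 10 weeks. Plasma cells (B220low CD138+) and plasmablasts (B220mid CD138+) were sorted on day 3 after lipopolysaccharide (LPS), a bacterial cell wall component that drives B cells to divide and to become antibody-secreting cells. Naive B cells (B220+ CD43-) came from control mice labelled naive, so cell type and LPS cannot be told apart in any comparison with them. No genetic change is labelled, each group has 3 libraries, and the labels do not say which libraries share an animal or a pool, so p-values measure only the spread between libraries, which may be technical.

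When a cell copies its DNA, the new strand carries no methyl groups. The enzyme DNMT1, guided by UHRF1 to the half-methylated CpGs behind the replication fork, restores them, and TET enzymes oxidise methylcytosine and so can start its removal. In cultured and tumour cells that have divided many times, CpGs that lie alone between A or T bases are known to lose methylation most readily, while CpGs with close neighbours keep it better. The assay cuts DNA with MspI at CCGG and reads the fragment ends, so it samples CpG-rich DNA densely, and bisulfite does not tell methylcytosine from hydroxymethylcytosine.

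A few members lay so close to a start site that their sequence could be shown. Of 8281 genes with 3 or more deposited CpGs between 250 bases before and 50 bases after the start, 6282 were found by symbol in the RefSeq promoter sequences (GRCm38.p6). In 3449 of them every deposited CpG fell on a CG when placed by its distance from the start. These windows held 13 members in 6 genes: 1700020D05Rik, D1Pas1, Slc25a31, Sycp1, Taf7l and Tuba3b. All but the first are known for work in the male germ line. How many genes with comparison CpGs in these windows are of this kind was not counted. The statement is therefore background and not a trait of members. Slc25a31 encodes a testis ADP/ATP carrier, Sycp1 a protein of the meiotic synaptonemal complex and D1Pas1 a DEAD-box helicase of spermatocytes. Tuba3b encodes an alpha-tubulin and Taf7l a germ cell form of a TFIID subunit. The windows of 4 of the 6 genes are printed and show members beside CpGs that dropped below 95%. The windows of Taf7l and 1700020D05Rik, which are not printed, hold such CpGs too. They run 5′ to 3′ along the gene, and the capitals are the CGs that are members. In GRCm38.p6 they are chr3:40708621-40708920 on the plus strand for Slc25a31, chr3:102936051-102936350 on the minus strand for Sycp1, chr1:186967166-186967465 on the plus strand for D1Pas1 and chr6:145615713-145616012 on the plus strand for Tuba3b.
Slc25a31: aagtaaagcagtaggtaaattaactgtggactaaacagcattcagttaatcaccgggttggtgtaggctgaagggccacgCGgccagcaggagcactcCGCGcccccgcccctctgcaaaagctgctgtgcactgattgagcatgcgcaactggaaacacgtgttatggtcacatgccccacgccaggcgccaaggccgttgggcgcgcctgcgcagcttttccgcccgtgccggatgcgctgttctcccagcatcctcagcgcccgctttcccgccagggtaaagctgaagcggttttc
Sycp1: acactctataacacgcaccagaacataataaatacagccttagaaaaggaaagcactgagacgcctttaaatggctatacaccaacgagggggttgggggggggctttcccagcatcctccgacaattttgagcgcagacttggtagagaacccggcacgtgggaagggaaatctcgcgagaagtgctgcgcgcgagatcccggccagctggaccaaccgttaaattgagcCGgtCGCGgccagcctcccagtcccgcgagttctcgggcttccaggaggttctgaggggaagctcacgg
D1Pas1: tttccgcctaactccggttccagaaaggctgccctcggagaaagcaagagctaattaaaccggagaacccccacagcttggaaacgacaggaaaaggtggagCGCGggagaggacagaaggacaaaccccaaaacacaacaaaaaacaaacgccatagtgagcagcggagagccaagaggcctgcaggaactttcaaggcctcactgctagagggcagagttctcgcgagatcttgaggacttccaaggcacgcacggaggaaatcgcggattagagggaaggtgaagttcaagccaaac
Tuba3b: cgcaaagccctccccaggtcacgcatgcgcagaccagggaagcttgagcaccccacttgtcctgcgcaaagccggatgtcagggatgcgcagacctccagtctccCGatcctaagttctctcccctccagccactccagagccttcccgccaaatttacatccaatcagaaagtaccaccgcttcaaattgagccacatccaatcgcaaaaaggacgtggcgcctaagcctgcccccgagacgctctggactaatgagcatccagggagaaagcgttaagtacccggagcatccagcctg

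In Slc25a31 the 3 members lay 170, 152 and 150 bases before the start, in a window with 22 CGs of which 17 were measured. Their pooled levels were 97.0% each in naive B cells, between 95.3% and 98.8% in plasmablasts, then between 97.9% and 99.0% in plasma cells. A comparison CpG 197 bases before the start had 97.2% in naive B cells, 87.8% in plasmablasts, then 90.7% in plasma cells, so members and a CpG that lost methylation shared 1 window. Over 31 CpGs of the gene that the rule had not used, the level was 92.4% ± 0.236 in plasma cells and 95.4% ± 2.21 in naive B cells (SD, n = 3 each), a pooled difference of -3.25 points that did not pass (adjusted p = 0.14, quasi-binomial model with Benjamini-Hochberg adjustment over 15505 genes). In Sycp1 the members lay 19, 15 and 13 bases before the start. At 13 and 15 bases before the start all reads were methylated in naive B cells and plasmablasts (100%), with 97.6% and 95.2% in plasma cells. Over 15 unused CpGs of Sycp1 the pooled difference was -11.4 points (adjusted p = 0.0268 in the same model), short of the call at 0.01.

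In D1Pas1 the members 148 and 146 bases before the start had 100% and 98.5% in naive B cells, 97.7% and 98.9% in plasmablasts, then 97.2% and 95.8% in plasma cells. The comparison CpG of the same window, 190 bases before the start, had 97.0% in naive B cells, 90.9% in plasmablasts, then 91.8% in plasma cells. In Tuba3b 1 CpG, 145 bases before the start, was a member, with 98.6%, 97.8% and 95.4% in naive B cells, plasmablasts and plasma cells in that order. These levels chose the CpGs and are given as a description.

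**Figure D1:**
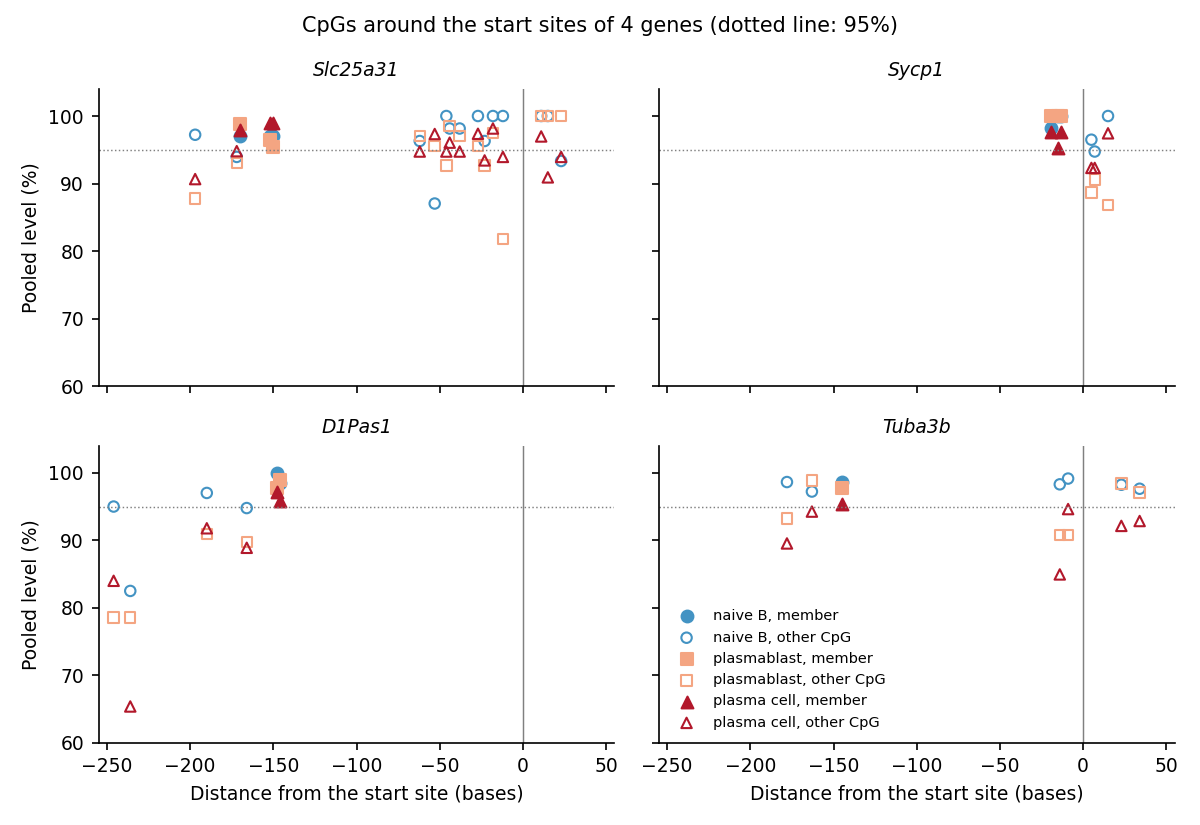
Pooled methylation level (%) of each measured CpG against its distance from the start site in bases for Slc25a31, Sycp1, D1Pas1 and Tuba3b, with naive B cells, plasmablasts and plasma cells as circles, squares and triangles and members filled. Members sit at or above the dotted 95% line in all 3 groups, while CpGs of the same windows, such as the one 190 bases before the start of D1Pas1, had 91.8% in plasma cells.

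The bases around these promoter members differed in count from those around 102 comparison CpGs in 59 genes of the same 3449. One member of 13 (7.69%) and 42 comparison CpGs of 102 (41.2%) lay in CCGG, the cut site of the assay, which reads the same on both strands. No member of the 13 and 6 of the 102 comparison CpGs (5.88%) had A or T on both sides, that is ACGT, TCGA or ACGA with its reverse complement TCGT, which covers both strands and cannot overlap CCGG at the same CpG. Within 35 bases on each side, members had a median of 5.5 other CGs (12 with a full flank) and comparison CpGs a median of 2 (76 with a full flank). At least 4 other CGs were counted at 9 of 12 members (75%) and at 18 of 76 comparison CpGs (23.7%). Of all 32851 RefSeq windows of this length, 52.8% hold CCGG, 64.3% hold one of the A/T forms, and the median window has 7 CGs. The members come from 6 genes and share reads within them, so these shares carry no test, and a sequence of the mm9 build was not used here for members elsewhere in the genome.

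The members stood at 98.01%, 98.9% and 99.0% in libraries of naive B cells, at 97.0%, 97.3% and 97.0% in those of plasmablasts, and at 97.1%, 96.6% and 96.7% in those of plasma cells. The comparison CpGs averaged 97.8% ± 0.591 in naive B cells, then 85.7% ± 0.405 in plasmablasts, then 81.7% ± 2.45 in plasma cells (SD, n = 3 each). The rule fixes both patterns. Choosing the members again without a library and then reading that library gives a level outside the choice: 98.6% ± 0.566 in naive B cells, 95.7% ± 0.179 in plasmablasts, then 94.1% ± 0.649 in plasma cells (SD, n = 3 each). On these terms every plasmablast library (95.6% to 95.9%) and every plasma cell library (93.6% to 94.9%) lay below every naive B library (97.9% to 98.9%). The label of the group as resisting loss therefore does not mean a level that stayed the same. It describes a smaller loss than at comparison CpGs. Read the same way, these had 97.2% ± 0.812, 85.9% ± 0.418 and 81.7% ± 2.50 in stage order. Members and comparison CpGs were still chosen on the other libraries of the same group, so the difference between them is only a description.

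**Figure D2:**
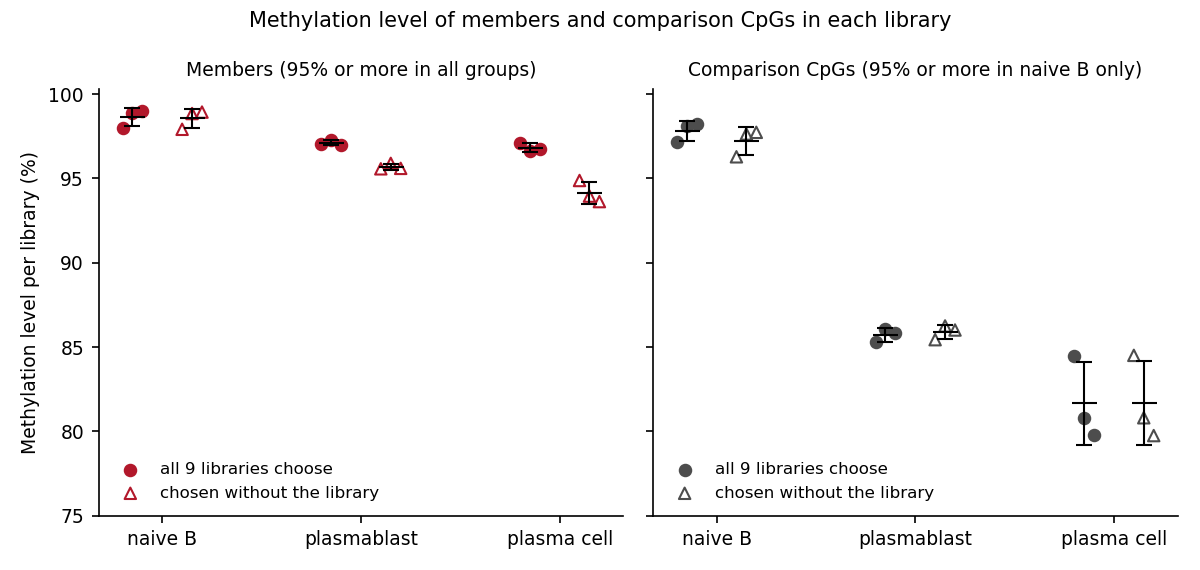
Methylation level (%) of members (left) and comparison CpGs (right) in each library, as filled points where all 9 libraries chose the CpGs and as triangles where the library shown took no part in the choice; bars are the mean and SD of 3 libraries. With held-out libraries the members had 94.1% in plasma cells and the comparison CpGs 81.7%.

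Few members were complete in every library. In all, 654 members (11.4%) reached 95% in each of the 9 libraries, and 14 had no unmethylated read in any. A pooled level of 100% was found in naive B cells for 27.2% of the members, in plasmablasts for 8.07% and in plasma cells for 6.48%. Just inside the threshold, 2753 CpGs had a lowest group between 95% and 96%, and just outside it 3447 CpGs had a lowest group between 94% and 95%. Both sets started from the same level in naive B cells, 98.5% and 98.5%. Members had a median of 260 reads over the 9 libraries and comparison CpGs 277.

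Throughout, a CpG is assigned to the gene with the closest start site in the deposited table and may lie outside that gene. The deepest CpGs with no unmethylated read show how far the counts can go. At Myh9, which encodes the heavy chain of a non-muscle myosin, a CpG inside the gene (chr15:77611858 in mm9), which the deposited table places 195 bases before an annotated start site, had 246 methylated reads and none unmethylated, which allows an unmethylated share of up to 1.22%. An intergenic CpG whose closest start site is that of Eea1, an early endosome tether, had 238 such reads (up to 1.26%), and an exonic CpG of Pabpc6, a poly(A)-binding protein gene, had 222 (up to 1.35%). The others by depth were assigned to Zfp319, Tmem209, Arid5b, Dvl3, Myo1g, 9130230L23Rik and Fiz1, with 156 to 207 reads. Reads were amplified without molecular identifiers, so such limits and all intervals here cover counting error only. The limits are 3 divided by the number of reads. They do not allow for the choice of these CpGs by their lack of unmethylated reads.

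Members were most frequent in exons. Of naive-high CpGs, 9.32% were members in exons (1893 of 20318; 95% exact binomial interval 8.92 to 9.72), 5.20% in promoters (282 of 5425), 3.91% in introns (2170 of 55500) and 2.42% in intergenic DNA (1379 of 56979). Within exons the share was 9.90% outside the UTRs, 7.49% in 3′ UTRs and 7.35% in 5′ UTRs. The share in exons was above that in introns on all 20 chromosomes counted and above that in intergenic DNA on 19, the X chromosome being the exception. It also held inside genes: in 596 genes with at least 5 exonic and 5 intronic CpGs of this kind, 10.7% of the exonic CpGs (529 of 4939) and 4.32% of the intronic ones (381 of 8828) were members. The exonic share was the higher one in 231 of these genes and the intronic share in 118, and 247 were equal, of which 243 had no member at all. With distance from the start site the share went from 6.15% under 1 kb to 2.09% at 100 kb or more.

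The share also changed with the number of neighbouring CpGs. It was 1.39% with no other deposited CpG within 50 bp, 2.70% with 1, 5.79% with 2 to 3, 13.4% with 4 to 6 and 26.0% with 7 or more. Exonic and intergenic CpGs both followed this order, with 4.43% and 0.628% at no neighbour and 26.1% and 28.7% at 7 or more. CpGs within 50 bp can lie in the same reads, so their levels are not independent counts. Depth and starting level moved with the share too: it was 5.15% under 200 reads and 2.59% at 400 or more, and 1.63% where naive B cells had 95 to 97% but 8.02% where they had 100%. The part of depth, starting level and number of neighbours in the differences between places was not tested. In each band of reads the exonic share was above the intergenic one, with 10.7% and 2.99% under 200 reads and 6.99% and 1.59% at 400 or more. With 0, 1, 2 to 3 and 4 to 6 neighbours the exonic share was also the higher one. It was 5.45% against 1.53% with 1, 9.40% against 3.75% with 2 to 3 and 17.1% against 9.91% with 4 to 6. At 7 or more neighbours the exonic share was not above the intergenic one (26.1% of 357 CpGs and 28.7% of 115). The 95% exact binomial intervals there overlapped, at 21.6 to 30.9 and 20.6 to 37.9.

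**Figure D3:**
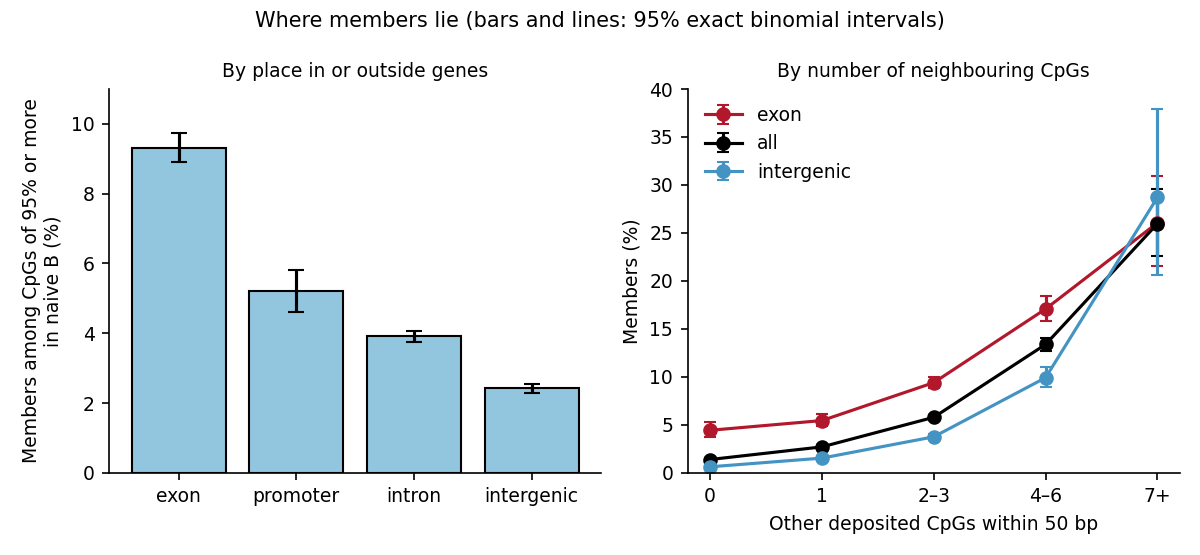
Members as a percentage of the naive-high CpGs, by place in or outside genes (left) and by the number of other deposited CpGs within 50 bp (right), with lines for 95% exact binomial intervals. The share was 9.32% in exons and 2.42% in intergenic DNA, and it reached 26.0% with 7 or more neighbours.

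Members lay near one another. Of the nearest naive-high CpGs within 50 bp, 27.3% were members beside a member and 3.79% beside a comparison CpG. At over 100 to 1000 bp, beyond the 50 bp length of a read, these shares were 9.95% and 2.31%, and beyond 10 kb they were 4.20% and 2.18%. Runs of adjacent members were short: 1730 members (30.2%) stood in a run of 2 or more and 3994 stood alone, with 14 runs of 5 or more. The longest run held 12 members over 717 bp of exonic DNA assigned to Dhrsx, a short-chain dehydrogenase gene, at 128662 to 129378 of the unlocalised chromosome 4 sequence of mm9. Next was a run of 9 in 46 bp of an exon of Rere (chr4:149991147-149991192), a nuclear corepressor, and a run of 8 at Zfp296, which is named for this length after its values were seen. Runs of 6 were found at Zmynd8, a chromatin reader, Tenm3, a teneurin of neuronal wiring, and AI506816.

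Other CpGs near the members, which the rule never used, gave a further measure. These are deposited CpGs with under 10 reads in at least 1 library that lay 100 to 1000 bp from a member and from no comparison CpG (2130 CpGs), and the converse set near comparison CpGs (74380). Near members 41.0% were exonic and 15.6% intergenic, against 20.4% and 35.3% near comparison CpGs. Deposited CpGs without a read numbered 69627 in naive B 2 and 82986 in naive B 3, against 119 to 4628 in each other library. The libraries may therefore not all read the same CpGs of a set, and the part of this was not tested. Near members the level was 87.4%, 93.5% and 93.2% in naive B libraries, 83.1%, 85.6% and 84.9% in plasmablast libraries, and 81.1%, 73.0% and 72.1% in plasma cell libraries. Near comparison CpGs it averaged 87.4% ± 4.04 in naive B cells, 76.2% ± 1.74 in plasmablasts, then 65.1% ± 5.13 in plasma cells (SD, n = 3 each). The CpGs near members thus had lower levels too: the difference from naive B cells was -6.87 points in plasmablasts and -16.0 in plasma cells, against -11.2 and -22.3 points near comparison CpGs. The gap between the sets, near members minus near comparison CpGs, was 8.35 ± 0.506 points in plasmablasts and 10.3 ± 1.32 in plasma cells, against 3.99 ± 0.556 in naive B cells (SD, n = 3 each). It was wider than in naive B cells by 4.35 points in plasmablasts and by 6.29 points in plasma cells, and the libraries did not overlap. Each exact two-sided permutation p was 0.1, the smallest that 3 libraries against 3 can give, and 0.1 after adjustment over the 3 comparisons, so none could pass 0.05. With CpGs up to 5000 bp away the values were 2.94 points in plasmablasts and 3.07 in plasma cells (exact p = 0.1 each). Plasma cells differed from plasmablasts by 1.94 points (exact p = 0.1), and by 0.124 points (exact p = 0.8) with CpGs up to 5000 bp away.

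**Figure D4:**
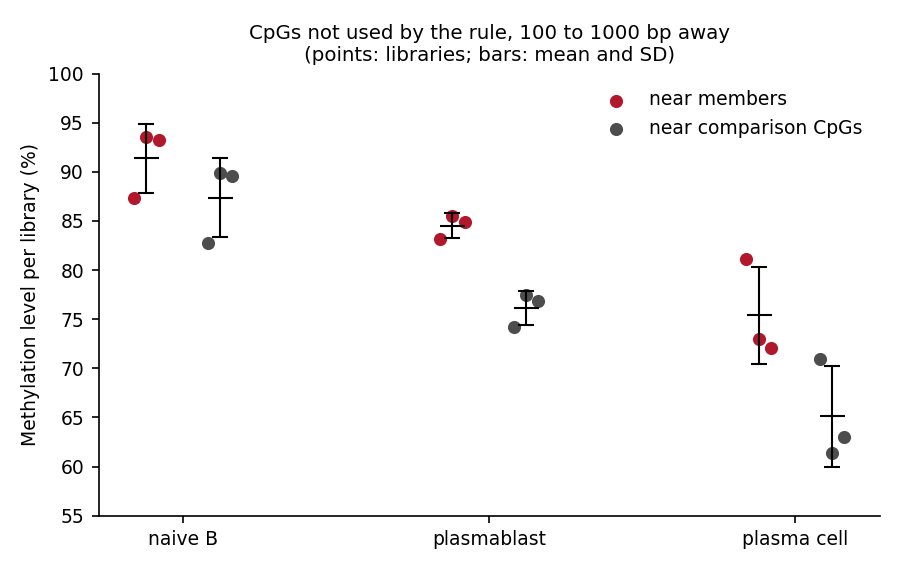
Methylation level (%) per library of CpGs the rule did not use, 100 to 1000 bp from a member (red) or from a comparison CpG (grey), with bars for the mean and SD of 3 libraries. Both sets were lower in plasma cells than in naive B cells, and the distance between them was 10.3 points in plasma cells and 3.99 points in naive B cells.

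By place, the exonic CpGs near members had 86.1% in plasma cells and 95.6% in naive B cells, a change of -9.53 points, while exonic CpGs near comparison CpGs changed by -21.1 points, so the changes differed by 11.5 points (exact p = 0.1). The corresponding values were 5.64 points in intergenic DNA (exact p = 0.1), 2.86 in introns (exact p = 0.4) and -0.0332 in promoters (exact p = 1). In plasmablasts the values were in another order, with 4.48 points in intergenic DNA (exact p = 0.1), 3.73 in introns (exact p = 0.1), 3.35 in exons (exact p = 0.3) and 2.42 in promoters (exact p = 0.2). Differences between places were not tested.

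A further set, chosen after the data were seen, carried the count of neighbours to CpGs outside the rule: 143449 CpGs with under 10 reads in at least 1 library, at 95% or more in naive B cells and 100 bp or more from any CpG the rule could use. With no other deposited CpG within 50 bp they had 98.2% ± 0.544 in naive B cells, 85.2% ± 0.960 in plasmablasts, then 78.1% ± 3.23 in plasma cells (SD, n = 3 each). With 4 or more they had 98.5% ± 0.452, 91.9% ± 0.408 and 89.6% ± 1.18 in the same order. The naive B level chose this set, so no comparison with naive B cells is read from it. Between the other groups, the gap of the 4-or-more class over the class with no neighbour was 11.5 ± 2.05 points in plasma cells and 6.73 ± 0.553 in plasmablasts (SD, n = 3 each), a difference of 4.78 points (exact p = 0.1, adjusted p = 0.1 over the 6 comparisons computed). Exonic CpGs of the set stood above intergenic ones by 5.07 ± 0.755 points in plasma cells and 3.76 ± 0.205 in plasmablasts (SD, n = 3 each), a difference of 1.31 points (exact p = 0.1, adjusted p = 0.1). The libraries of these groups also differ in background, given below, which cannot be told apart from stage here.

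Per CpG, the fit to all 356320 CpGs called 10.5% lower in plasmablasts and 22.6% lower in plasma cells than in naive B cells (adjusted p under 0.01 and 20 or more points). No member could be called under a rule that keeps it above 95%, and none was; 16542 comparison CpGs (14.5%) were called in plasmablasts and 35216 (30.8%) in plasma cells. The authors' deposited table marks 5645 comparison CpGs (4.94%) as changed in plasmablasts, 27135 (23.8%) in plasma cells, and no member in either, where its share of all 356320 CpGs is 3.315% in plasmablasts and 15.3% in plasma cells. All of these used the contrast that chose the members and are read only as a description.

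The members were spread over 2971 of the 14772 genes with at least 1 naive-high CpG, and 1835 of these genes had a single member. Another 576 members (10.1%) had no gene symbol. Among 2191 genes with 15 or more such CpGs, 1111 (50.7%) had no member. The gene with most was Gcn1l1, which encodes a ribosome-associated activator of the stress kinase GCN2 (chr5:116015272-116072663 in mm9), with 19 members of 51 CpGs, 18 of them exonic. Its 51 CpGs had 98.01%, 98.8% and 99.1% in naive B libraries, 95.4%, 95.4% and 94.8% in those of plasmablasts, then 93.4%, 91.2% and 92.5% in those of plasma cells; the rule used these CpGs, and the values are a description. Cit, a cytokinesis kinase, had 15 of 77, of which 1 was exonic, AI506816 had 14 of 19 and Dhrsx 13 of 15. Tenm3 had 13 of 77 (12 exonic), Rere 11 of 66 (10 exonic), E2f7, an atypical E2F repressor, 11 of 39, and 11 of 38 CpGs whose closest start site is that of Mir33, a microRNA gene far shorter than the DNA they span. Zmynd8, the homeobox gene Irx3, D1Pas1 and Gmpr, a GMP reductase, had 10 each.

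The unused CpGs of these genes were tested too. No minimum distance from the members was set for them, so some can lie in the same reads as members. Over 15505 genes with enough such CpGs, 3745 (24.2%) were called lower in plasma cells than in naive B cells and none higher, and 0 (0%) were called lower or higher in plasmablasts. Naive B 2 and 3 had no read at 69627 and 82986 deposited CpGs, so their gene sums cover fewer CpGs than those of other libraries. The part of this in the calls was not tested. At an unadjusted p under 0.05 the plasmablast comparison had 3506 genes lower and 116 higher. With limma on the unweighted mean level of each gene's CpGs, 2479 were called lower and 1 higher. That setting changed both the measure and the test. Of the 12 genes with most members 5 were called lower in plasma cells, with a median pooled difference of -13.0 points, and of 10 genes with no member, those of the 1111 without one with the most reads, 7 were called lower, with a median of -20.2. Over all 1106 such genes that could be tested, 543 were called lower (49.1%). The median of all genes was -16.7 points. Gcn1l1 had 69.1% ± 4.43 in plasma cells and 85.4% ± 3.60 in naive B cells over 50 unused CpGs (SD, n = 3 each; pooled difference -14.1, adjusted p = 0.00805, quasi-binomial model), so a gene rich in members was called lower at its other CpGs. Dhrsx (-7.89, adjusted p = 0.175) and Mir33 (-1.25, adjusted p = 0.841) did not pass in the same model. Zmynd8 (-14.7, adjusted p = 0.00555), Cit (-11.1, adjusted p = 0.00224), D1Pas1 (-11.3, adjusted p = 0.00332) and Gmpr (-15.6, adjusted p = 0.00733) did.

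Among these 10 genes with no member, Trio, a guanine nucleotide exchange factor, had 0 members of 80 CpGs, Auts2 0 of 82, Nav2, a neuron navigator, 0 of 72, Cdh13, a cadherin, 0 of 66 and Lrrc4c, a synaptic adhesion protein, 0 of 36. At its unused CpGs Trio changed by -23.1 points (adjusted p = 0.00388) and Cdh13 by -20.4 (adjusted p = 0.00164) in plasma cells by the quasi-binomial model. Sorted by share, 116 of 346 genes with 10% or more members were called lower (33.5%). Among genes with members but a share under 10% it was 373 of 728 (51.2%), and among those with none 49.1%. The median differences of these groups were close at -19.8, -20.3 and -20.1 points in that order. The gene calls rest on few libraries. The 3745 became 9048 without naive B 1, 1055 without naive B 2, 1181 without naive B 3, 1936, 1607 and 1747 without plasmablast 1, 2 and 3, 197 without plasma cell 2 and 0 without plasma cell 3.

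Gene lists, chosen with earlier results of these data known, differed in share. Genes of RNA processing and translation had 14.2% members (15 of 106 CpGs), proteasome and ubiquitin genes 10% (15 of 150), chromatin regulators 9.87% (44 of 446) and germline genes 7.94% (17 of 214), against 4.29% over all genes (5148 of 119964). Sf3b2, a splicing factor subunit, had 7 of 19, Prpf8, a core spliceosome protein, 3 of 9 and Polr2a, the largest subunit of RNA polymerase II, 3 of 11. These 3 genes hold most of the 15, only 5 of the 14 genes of that list with naive-high CpGs had a member, and the median share per gene was 0. Among chromatin regulators Trrap, a scaffold of acetyltransferase complexes, had 8 of 61, the histone methyltransferase Kmt2b 5 of 16 and the nucleosome remodeller Chd4 4 of 11. Of the germline promoter CpGs, 8 of 32 were members, against 278 of 5348 over all genes, and Sycp1 and Slc25a31 gave 3 each, in CpGs that share reads. The share of exonic CpGs, 34.0% in RNA processing, 25.3% in proteasome and ubiquitin genes and 23.1% in chromatin regulators, was above the 16.0% of all genes, and its part in the order was not tested.

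Genes of B cell identity and of the plasma cell program were nearer the share over all genes. Mature B cell identity genes had 4.42% members (14 of 317) and plasma cell program genes 5.08% (10 of 197). Tcf4, an E-protein of B cell development, had 5 of 73, Creb3l2, a membrane-anchored transcription factor of the secretory pathway, 6 of 24, and Cxcr4, a chemokine receptor of bone marrow homing, 1 of 33. Genes of DNA methylation upkeep had 6.56% (8 of 122) and of its removal 7.48% (11 of 147). Lowest were T cell markers with 2.21% (6 of 271), neuronal and synaptic genes with 2.00% (16 of 801) and imprinted genes with 0.980% (2 of 204). NK cell markers had 5.26% (2 of 38), myeloid markers 2.67% (2 of 75), erythroid and stem cell markers 3.50% (10 of 286) and Hox and Polycomb genes 4.55% (16 of 352). At unused CpGs 3745 of all 15505 genes (24.2%) were called lower in plasma cells, as were 8 of 13 T cell marker genes, 11 of 31 germline genes, 9 of 28 B cell identity genes, 5 of 20 plasma cell program genes, 9 of 58 Hox and Polycomb genes, 7 of 25 imprinted genes, 3 of 29 chromatin regulators and 1 of 24 proteasome and ubiquitin genes. The counts were 18 of 32 for neuronal genes and 2 of 28 for RNA processing genes, with median differences of -20.8 and -8.08 points, but the median levels in naive B cells were 71.7% and 22.5%, so the lists started from different levels.

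**Figure D5:**
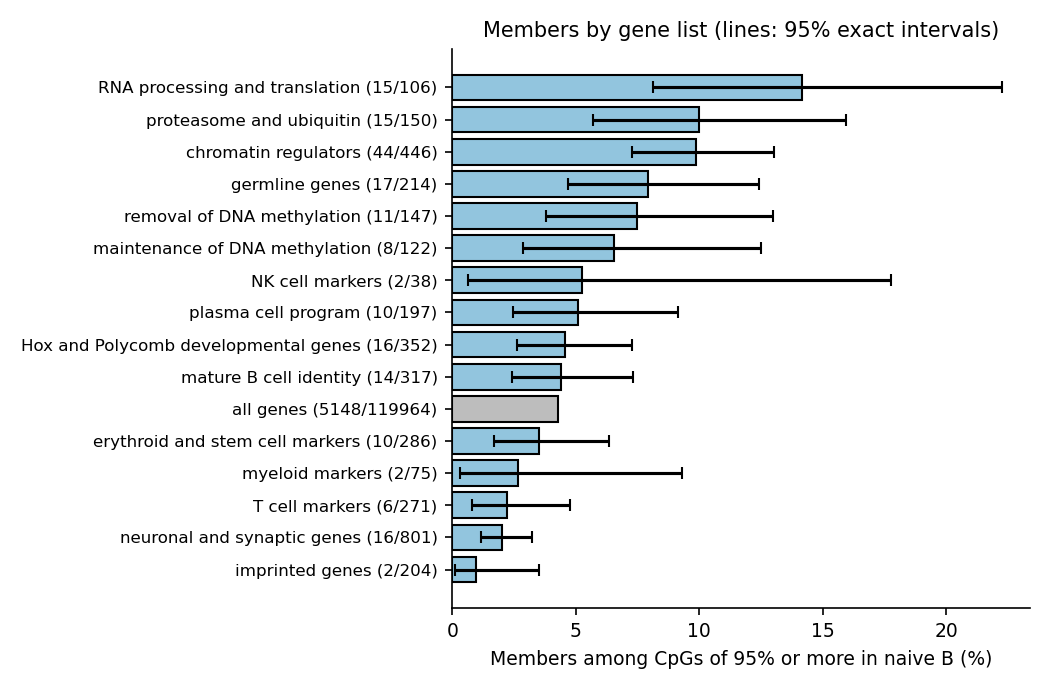
Members as a percentage of the naive-high CpGs in each gene list, with counts beside the names and lines for 95% exact binomial intervals; the grey bar is all genes. RNA processing and translation genes had 14.2% and imprinted genes 0.980%, against 4.29% over all genes.

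Along the chromosomes, 1039 windows of 1 Mb held 50 or more naive-high CpGs, with a median share of 3.85%, and 101 had no member. The highest shares were 20.4% at 23 to 24 Mb of chromosome 5 (21 of 103), where AI506816 lies, 19.2% at 115 to 116 Mb of chromosome 4 (10 of 52) and 18.8% at 110 to 111 Mb of chromosome 10 (16 of 85), where E2f7 lies. No member was found among 144 such CpGs at 65 to 66 Mb of chromosome 18, 125 at 59 to 60 Mb of chromosome 2 and 122 at 12 to 13 Mb of chromosome 8.

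The libraries held 16037172 to 29948088 reads over the deposited CpGs, with a median of 24 to 36 per eligible CpG, and replicates correlated at 0.956 to 0.986 across CpGs, which are not independent replicates. CpGs of the mitochondrial genome, taken as background because it carries little CpG methylation, stood at 0.332%, 3.89% and 3.34% in naive B 1, 2 and 3, at 2.77% to 7.18% in plasmablasts and at 0.896% to 1.05% in plasma cells. All plasma cell libraries thus lay below all plasmablast libraries, so stage and background cannot be told apart between these groups. With background subtracted, the gap near members differed between them by 1.67 points (exact permutation p = 0.2), against 1.94 without. The libraries under 2% include 1 of naive B cells, too few for a comparison within them. Among those above 2%, a split made after the data were seen, the gap near members was wider by 4.67 points in plasmablasts (n = 3) than in naive B 2 and 3 (n = 2; exact p = 0.2). CpGs at the start sites of Cd79b and Pax5 (B cells) and of Sdc1 and Xbp1 (plasma cells) averaged under 6% in all groups, with 2.71% in naive B cells, 3.45% in plasmablasts, then 0.798% in plasma cells for Cd79b. Lck, a T cell gene, had 14.2%, 15.8% and 9.62% in the same order. Methylation at these sites does not measure expression.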

How the data were processed

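The authors deposited, for each CpG and library, counts of methylated and unmethylated reads and the methylated fraction. Per the submitters' processing notes, reads were aligned to mm9 with Bismark and Bowtie2 (version: not given in the sources used). Levels were computed from the counts, and the deposited fraction was not used. The members and gene lists were chosen with earlier results of these data known. Named genes are the 12 with most members, the 10 highest and 10 lowest shares among genes with 15 or more CpGs (ties by reads), the 8 with most promoter members, up to 3 per list, the 10 deepest CpGs without an unmethylated read, and the 3 highest and lowest windows. Counts were fitted with a quasi-binomial logistic model over all 9 libraries (R 4.3.3), with a dispersion never under 1. It was moderated with limma 3.58.1 from CpGs or genes of intermediate level, and not from all as planned, since the planned form found none of the known changes when tested on simulated data. Gene tests summed unused CpGs (5 or more, with 20 or more reads per library) and called adjusted p under 0.01 and 5 or more points. Differences between library means used exact permutation tests (scipy 1.17.1, Python 3.11.15). Alternatives covered coverage, threshold, weighting, background, distance, the replicate block and each library left out.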

Additional observations from a re-analysis of the deposited data

How the results depend on the processing

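Depth and threshold set how many members there are. The 5724 became 10125 at a minimum of 5 reads, 1330 at 20 and 200 at 30, 31726 at a threshold of 90% and 343 at 98%, and 654 with every library at 95%, with 5633 to 7564 when 1 library was left out. Their share of 4.14% became 4.74, 3.15, 2.46, 17.7, 0.50 and 0.767% in the same order, 4.0% with unweighted means, 3.84% with background subtracted and 3.93 to 4.93% without 1 library. In all 17 alternatives exons had the highest share and intergenic DNA the lowest of the 4 places, with a ratio of 2.49 to 4.82, and the share rose over the 5 neighbour classes. At a threshold of 90% the held-out level was 91.6% in plasma cells and 93.8% in plasmablasts.

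CpGs called lower numbered 13227 (plasmablasts), 28038 (plasma cells) and 848 (plasma cells against plasmablasts) at 20 reads, where 113507 CpGs were tested and not 356320. Plasma cells against plasmablasts had 2077, which became 0 with limma and 1178 with background subtracted. Without 1 library the counts were 30067 to 38480, 66111 to 90232 and 443 to 3419. Genes lower in plasmablasts numbered 2479 with limma on unweighted means and 0 to 1193 without 1 library. Genes lower in plasma cells numbered 8443 with limma on unweighted means, 0 with the replicate block and 0 to 9048 without 1 library. Mir33 ran from -10.3 to 1.85 without 1 library, with 1.49 also above 0. The cause was not tested.

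Deviations of same-numbered libraries correlated at -0.029 to 0.030 across CpGs. Levels of single CpGs carry counting error, so these values cannot tell whether same-numbered libraries share an animal or a pool. With the replicate block 33603, 75786 and 1727 CpGs were called lower, and the gaps near members, 4.35, 6.29 and 1.94 points by construction as without it, had exact sign-flip p = 0.25, the smallest that 3 pairs can give. Without 1 library these gaps were 4.06 to 4.67, 5.6 to 6.91 and 1.24 to 2.55 points.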
